A study of Homo sapiens with 6 samples.

Results

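The teneurins (TENM1, TENM2, TENM3 and TENM4) and the latrophilins (ADGRL1, ADGRL2 and ADGRL3) are 7 genes of the 63190 genes whose RNA was estimated, and 81 of 207167 transcripts. A transcript was counted as a member when its gene identifier carried one of these 7 symbols. The family was chosen by the summed level of TENM1, which was low in all D391N libraries, so the difference for TENM1 and its transcripts is given as a description without a test.

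Teneurins are large single-pass membrane proteins of neurons that form dimers and carry a long extracellular region with EGF-like repeats and a barrel-shaped core. Latrophilins are adhesion G protein-coupled receptors that bind teneurins and FLRT proteins on a neighbouring cell through their N-terminal domains, and such contacts guide synapse formation and axon targeting. ADGRL1 was first known as a receptor for the spider toxin alpha-latrotoxin.

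The series holds 3 RNA-seq libraries of HEK293T-Rex cells that express DIS3L2 D391N and 3 of control HEK293T-Rex cells. This line derives from human embryonic kidney, carries a tetracycline repressor and is named HEK293 in the labels. D391N is a catalytically inactive form of DIS3L2, an exonuclease that degrades uridylated RNA, and doxycycline induced it from a stably integrated construct. Whether the control cells received doxycycline is not given in the sources used here. The D391N cells were 1 stable line, so the construct and the line cannot be told apart, and nothing in the labels says that replicates were separate cultures, so p-values measure only the spread between these libraries.

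Levels are in RPKM, reads scaled by transcript length and by library size, summed over all transcripts of a gene. DIS3L2, which also collects the reads of the construct, was at 11.8, 12.9 and 14.6 RPKM in control replicates 1, 2 and 3, and the D391N replicates held 369, 467 and 512 RPKM (log2 fold change 5.08; adjusted p = 0.000268, limma). The depth estimated from the posterior variance of the values was about 18800000 to 25100000 reads in the D391N libraries and 21000000 to 31200000 in the controls. Replicates correlated across 20714 genes with r of 0.885 to 0.935 in the D391N group and 0.959 to 0.977 in the control group. Among 10 genes reported in HEK293 cells, 9 reached a mean of 1 RPKM, led by VIM at 141 and KRT8 at 140 RPKM. The lowest of the 10 were LHX1 at 2.04, PAX2 at 1.68 and NEFM at 0.371 RPKM. The 10 genes summed to 315 to 374 RPKM in the D391N and 465 to 540 RPKM in the control libraries, which mainly reflects the highest genes. Summed levels of 4 endothelial markers lay between 0.573 and 1.04 RPKM. Neuronal, glial, fibroblast and blood markers summed to 11.4 to 18.3, 9.74 to 14.7, 7.09 to 13.3 and 5 to 10.1 RPKM. SYN1 (0.039), OLIG2 (0.678), LUM (0.143) and CD3E (0.106) were under 1 RPKM on average, whereas the highest marker of each list was above it. These highest markers were TUBB3 (5.18), MBP (7.62), DCN (3.3) and HBB (3.85), so the lists were not low throughout. LHX1, PAX2 and NEFM were below each of these highest markers. The ranges of the D391N and control libraries overlapped in each of these other cell types.

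TENM1 (ENSG00000009694) lies on the minus strand of chromosome X at 124375903 to 125204312 in GRCh38.p14, and RefSeq lists a distal and an internal start. To show annotated start sites of the teneurins with a mean of at least 1 RPKM, RefSeq windows of 300 bases are printed. The windows surround the TENM1 starts, the CG-richest TENM3 start and the TENM4 start. They run from 250 bases before to 50 bases after the start, with CG dinucleotides in capitals. They lie at chrX:125204263-125204562 (minus strand), chrX:124963768-124964067 (minus strand), chr4:182448766-182449065 (plus strand) and chr11:79440981-79441280 (minus strand) of GRCh38.p14.
TENM1 distal start: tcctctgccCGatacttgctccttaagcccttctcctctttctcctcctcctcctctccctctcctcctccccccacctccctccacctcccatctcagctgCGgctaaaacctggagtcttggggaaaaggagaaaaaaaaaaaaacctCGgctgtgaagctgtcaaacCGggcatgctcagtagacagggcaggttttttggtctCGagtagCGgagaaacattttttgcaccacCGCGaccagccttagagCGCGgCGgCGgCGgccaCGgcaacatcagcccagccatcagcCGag
TENM1 internal start: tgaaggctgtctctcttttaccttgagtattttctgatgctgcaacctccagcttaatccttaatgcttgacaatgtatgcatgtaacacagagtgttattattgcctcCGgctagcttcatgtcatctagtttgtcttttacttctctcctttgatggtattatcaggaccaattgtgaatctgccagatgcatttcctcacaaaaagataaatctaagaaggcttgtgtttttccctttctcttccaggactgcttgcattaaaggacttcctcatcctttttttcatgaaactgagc
TENM3 start: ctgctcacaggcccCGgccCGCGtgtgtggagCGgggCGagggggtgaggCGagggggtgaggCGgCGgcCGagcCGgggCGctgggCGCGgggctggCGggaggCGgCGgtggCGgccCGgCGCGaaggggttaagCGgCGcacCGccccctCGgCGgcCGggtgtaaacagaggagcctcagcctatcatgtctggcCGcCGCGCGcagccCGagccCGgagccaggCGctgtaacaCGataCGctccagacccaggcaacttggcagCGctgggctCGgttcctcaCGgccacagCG
TENM4 start: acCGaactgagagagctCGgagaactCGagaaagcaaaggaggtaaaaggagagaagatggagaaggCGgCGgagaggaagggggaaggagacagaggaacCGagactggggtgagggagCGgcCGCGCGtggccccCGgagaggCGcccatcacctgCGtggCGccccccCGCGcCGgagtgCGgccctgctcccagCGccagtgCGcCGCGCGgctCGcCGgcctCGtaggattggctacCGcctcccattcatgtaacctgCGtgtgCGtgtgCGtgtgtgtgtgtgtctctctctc
The distal TENM1 window held 15 CG, close to the median of 14 over 35116 RefSeq windows, and 57.3% G or C. The internal TENM1 window held 1 CG, and 11% of all windows held as few. The printed TENM3 window held 39 CG, a number that 8.71% of windows reach, and the other TENM3 window held 22, which 37.7% reach. The TENM4 window held 30. The 2 windows of TENM2 held 3 and 4 CG, those of ADGRL3 held 21 and 30, and the 8 of ADGRL2 between 4 and 34. The letters TATAAA were found on either strand in 2 of the 17 windows of the members, 1 of TENM2 and 1 of ADGRL2, and in 11.5% of all windows. These matches describe the sequence only.

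In control cells TENM1 was the second most abundant teneurin after TENM3 on summed RPKM, and in D391N cells its level was far lower. Control replicates 1, 2 and 3 held 8.43, 12.2 and 14.6 RPKM of TENM1, and D391N replicates 1, 2 and 3 held 0.483, 0.973 and 0.201 RPKM. The highest D391N library was far below the lowest control, and in these bulk samples fewer cells with TENM1 RNA and less of it per cell cannot be told apart. The means were 11.7 ± 3.11 RPKM in controls and 0.552 ± 0.391 RPKM in D391N cells (SD, n = 3 each), a ratio of 21.3. On the scale of log2(RPKM + 0.1) the difference was -4.33, which 0.198% of the 20714 genes tested matched or passed in the lower direction.

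**Figure D1:**
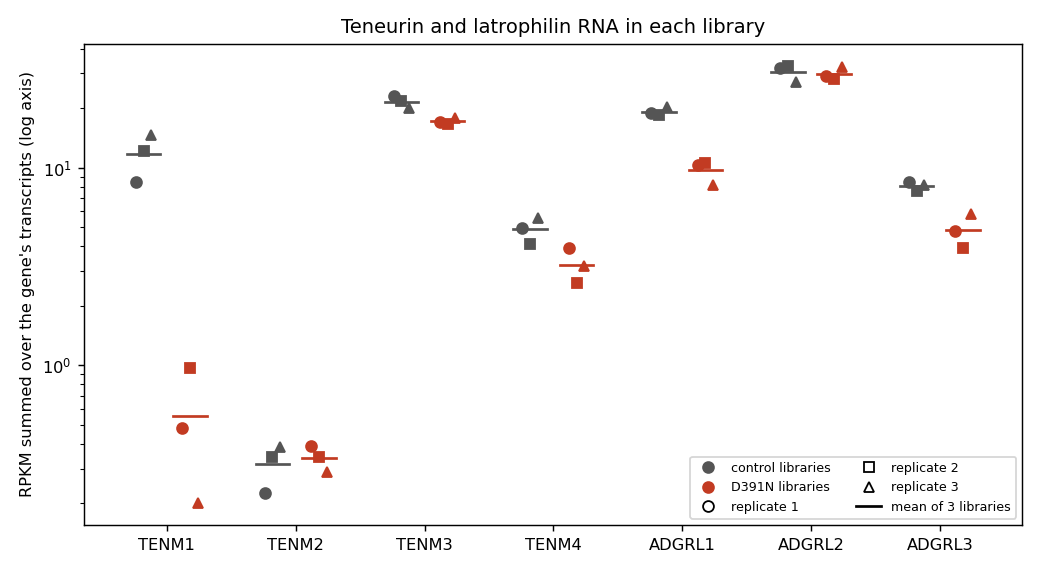
RPKM summed over the transcripts of each gene, on a log axis, for 3 control (grey) and 3 D391N (red) libraries, with the marker shape giving the replicate and a line the mean. TENM1 values lie at 0.201 to 0.973 RPKM in the D391N libraries and at 8.43 to 14.6 RPKM in the controls, whereas ADGRL2 overlaps between the groups.

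Expressed as RPM (RPKM times transcript length in kilobases, so that long transcripts count by their reads), TENM1 was at 41.8, 49.9 and 53.6 in the controls and at 1.48, 1.53 and 1.54 in the D391N libraries. On this scale TENM3 was at 35.3, 59.1 and 61.5 in the controls, without ENST00000406950, a TENM3 transcript that lacks a length. That transcript was at 5.74, 3.61 and 1.38 RPKM in control replicates 1, 2 and 3. Among the controls TENM1 was above this TENM3 value only in replicate 1, so the order of the 2 genes on RPM was not settled. By the posterior variance, at least 3 reads were reached by 1, 2 and 1 of the TENM1 transcripts in control replicates 1, 2 and 3 and by 0, 1 and 0 in the D391N replicates. The D391N values of the long transcripts, which make up most of the RPM, rest on under 1 effective read each. The longest TENM1 transcript had 0.3 to 0.4 effective reads in the controls too, at 0.921 to 1.56 RPKM. A low effective number therefore does not show that RNA was absent. At the estimated depths the RPM amounted to about 33, 29 and 39 TENM1 reads in D391N replicates 1, 2 and 3. In control replicates 1, 2 and 3 it amounted to about 1241, 1556 and 1125 reads. Whether TENM1 RNA remained in each D391N library was not tested.

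All 3 annotated TENM1 transcripts were lower in every D391N library than in every control, a pattern shown by 15.6% of the 54671 transcripts tested. The choice of TENM1 by its low D391N level favours this pattern. TENM1-203 (ENST00000461429), a 415-nt transcript without an annotated coding sequence, overlapped exons 23 to 26 of the 35 exons of the longest transcript. It was at 5.41, 8.7 and 10.9 RPKM in controls and at 0.383, 0.885 and 0.0879 RPKM in D391N cells. It made up 70.9% of the summed RPKM in controls because RPKM divides by length. Its D391N values rested on an estimated 1.6, 5.1 and 0.1 reads, and they set the spread of the D391N gene sums.
The coding transcript TENM1-201 (ENST00000371130, 12875 nt, exons 4 to 35) was at 1.94, 2.62 and 2.17 RPKM in controls and at 0.049, 0.0437 and 0.0598 RPKM in D391N cells. The longest transcript, TENM1-202 (ENST00000422452, 13547 nt), was at 1.07, 0.921 and 1.56 RPKM in controls and at 0.051, 0.0444 and 0.0538 RPKM in D391N cells. The D391N estimates of the long coding forms were thus low alongside that of the short one, but rested on 0.3 to 0.4 effective reads each. The posterior variance leaves the split of reads between the long forms poorly resolved, with an effective number of reads between 0.3 and 4.6 for each in every library.

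None of the tested genes around TENM1 had a log2 fold change as low as its -4.33, which 0.198% of all genes tested matched or passed. As TENM1 was chosen for its low level, the choice largely set this contrast. RefSeq places 122 other genes within 5 Mb of the TENM1 start, of which 83 were in the files and 23 were tested. None of the 23 passed an adjusted p of 0.05 (limma, Benjamini-Hochberg), against 0.14% of all genes, while 9 had an unadjusted p under 0.05, 6 of them lower in D391N cells, against 22.7% of all genes and 16% lower. The median log2 fold change of the 23 was -0.01, with -0.09 for all genes tested, and the range was -2.54 to 1.61. The nearest tested gene toward lower coordinates was the pseudogene NPM1P34, whose start lies at -923.8 kb, with a log2 fold change of 0.54 (adjusted p = 0.288, limma). Toward higher coordinates it was SMARCA1, a chromatin remodelling ATPase at 4319.2 kb, with 0.21 (adjusted p = 0.562, limma). In 8 of the 23 genes every D391N library was below every control, against 20.7% of all genes, and in 3 every D391N library was above, against 10.5%.

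**Figure D2:**
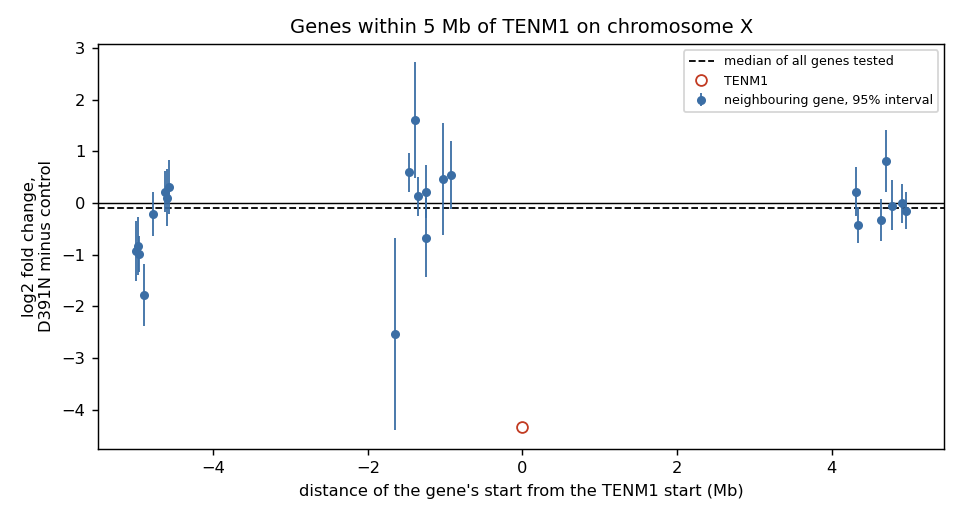
Log2 fold change, D391N minus control, of the 23 tested genes within 5 Mb of TENM1 against the distance of their start in Mb, with 95% intervals of the limma fit (blue) and TENM1 as an open red circle without an interval. The neighbours lie between -2.54 and 1.61 with a median of -0.01, above TENM1 at -4.33, and the nearest start lies at -923.8 kb. TENM1 was chosen for its low level.

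The 5 genes with the profile nearest to that of TENM1, measured as the root mean square difference of centred log2(RPKM + 0.1) values over the 6 libraries, were RNU6-471P (0.43), ZNF22 (0.62), RNU6-1175P (0.64), PCDH19 (0.70) and RNU6-733P (0.76). The median over 20713 genes was 2.21. PCDH19, an X-linked protocadherin that acts in neuronal adhesion, was at 4.77, 4.55 and 5.44 RPKM in controls and at 0.313, 0.334 and 0.35 RPKM in D391N cells. ZNF22, a zinc finger gene, was at 2.26, 2.39 and 1.72 RPKM in controls and at 0.0246, 0.0119 and 0.00876 RPKM in D391N cells. The groups did not overlap in either gene, which the choice by likeness to TENM1 fixes. The 3 RNU6 genes are near-identical pseudogene copies of U6 snRNA, so their values are uncertain. Of the other members, ADGRL1 stood at rank 1030, ADGRL3 at 3014, TENM4 at 3832, TENM3 at 6796 and ADGRL2 at 11754 of the 20713 genes.

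The other teneurins showed no difference that passed the adjusted threshold. TENM3 (ENSG00000218336; chromosome 4, 181447613 to 182803024, plus strand) was the most abundant teneurin in both groups on summed RPKM. It was at 23.1, 21.7 and 19.9 RPKM in controls and at 17.1, 16.7 and 17.9 RPKM in D391N cells, and the groups did not overlap. The means were 21.6 ± 1.6 and 17.2 ± 0.611 RPKM (SD, n = 3 each), and the log2 fold change was -0.32 ± 0.13 (SE; adjusted p = 0.214, limma). Its sign turned to 0.46 when RPM was summed, where ENST00000406950 was left out for lack of a length.

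TENM4 (ENSG00000149256; chromosome 11, 78652829 to 79441030, minus strand), a teneurin known for its part in myelination, was at 4.93, 4.11 and 5.59 RPKM in controls and at 3.91, 2.61 and 3.18 RPKM in D391N cells. The lowest control stood just above the highest D391N library. The log2 fold change was -0.59 ± 0.22 (SE; adjusted p = 0.192, limma). TENM2 (ENSG00000145934; chromosome 5, 166979029 to 168264157, plus strand) lay between 0.226 and 0.389 RPKM over the 6 libraries, under the minimum of 1 RPKM, and none of its 11 transcripts reached an estimated 3 reads in a library. Over the 8 transcripts with a length, RPM amounted to about 4 to 7 TENM2 reads in each library. Whether TENM2 RNA was present in either group was not tested.

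The makeup of the teneurin RNA differed accordingly. Summed over the 4 genes, teneurin RNA was at 38.5 ± 1.94 RPKM in controls and 21.4 ± 0.662 RPKM in D391N cells. TENM1 held 30.3% ± 6.65 of it in controls and 2.62% ± 1.93 in D391N cells, whereas TENM3 held 56.2% ± 6.86 and 80.7% ± 2.45 (SD, n = 3 each). On RPM, which left out transcripts of TENM2, TENM3 and TENM4 without a length, TENM1 held 47.1% ± 4.38 in controls and 2.07% ± 0.362 in D391N cells, TENM3 held 49.3% ± 4.61 and 94% ± 1.34, and TENM4 held 3.37% ± 0.422 and 3.63% ± 0.881. These shares contain the TENM1 difference that chose the family and were not tested.

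Among the receptors, ADGRL1 had the largest difference. ADGRL1 (ENSG00000072071; chromosome 19, 14147743 to 14206169) was at 18.8, 18.5 and 20.3 RPKM in controls and at 10.3, 10.6 and 8.2 RPKM in D391N cells. Every D391N library was well below every control. The means were 19.2 ± 0.964 and 9.7 ± 1.31 RPKM (SD, n = 3 each), a ratio of 1.99, and the log2 fold change was -0.99 ± 0.16 (SE; 95% interval -1.36 to -0.62). The adjusted p was 0.0645 (limma), which misses the threshold of 0.05, at an unadjusted 0.00044. Without D391N replicate 1 the adjusted p was 0.0271 at a log2 fold change of -1.04, and on RPM, an alternative chosen after seeing the data, it was 0.0114 at -1.34. Over all alternatives the adjusted p ranged from 0.0114 to 0.281. On the RPM scale ADGRL1 was at 51.7, 49.2 and 59.6 in controls and at 21.1, 20.9 and 21.0 in D391N cells.

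ADGRL3 (ENSG00000150471; chromosome 4, 61200326 to 62078335, plus strand), a receptor linked to attention deficit disorder in human genetics, was at 8.48, 7.58 and 8.18 RPKM in controls and at 4.78, 3.93 and 5.82 RPKM in D391N cells. The groups did not overlap, and the means were 8.08 ± 0.458 and 4.84 ± 0.947 RPKM. The log2 fold change was -0.74 ± 0.19 (SE; adjusted p = 0.113, limma), with adjusted p values of 0.0519 to 0.319 over the alternatives.

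ADGRL2 (ENSG00000117114; chromosome 1, 81306132 to 81993932, plus strand), the most abundant of the 7 genes, was at 31.8, 32.7 and 27.0 RPKM in controls and at 28.9, 28.1 and 32.3 RPKM in D391N cells. The groups overlapped throughout. The log2 fold change was -0.03 ± 0.14 (SE; 95% interval -0.38 to 0.31; adjusted p = 0.916, limma). Its share of the latrophilin RNA was 52.7% ± 3.63 in controls and 67.2% ± 2.21 in D391N cells, and that of ADGRL1 was 33.3% ± 2.87 and 21.9% ± 3.74. On RPM these shares were 68.8% ± 3.63 and 81.6% ± 1.96 for ADGRL2 and 22.3% ± 3.21 and 11.5% ± 1.17 for ADGRL1. The difference between the fold changes of ADGRL1 and ADGRL2 was not tested.

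**Figure D3:**
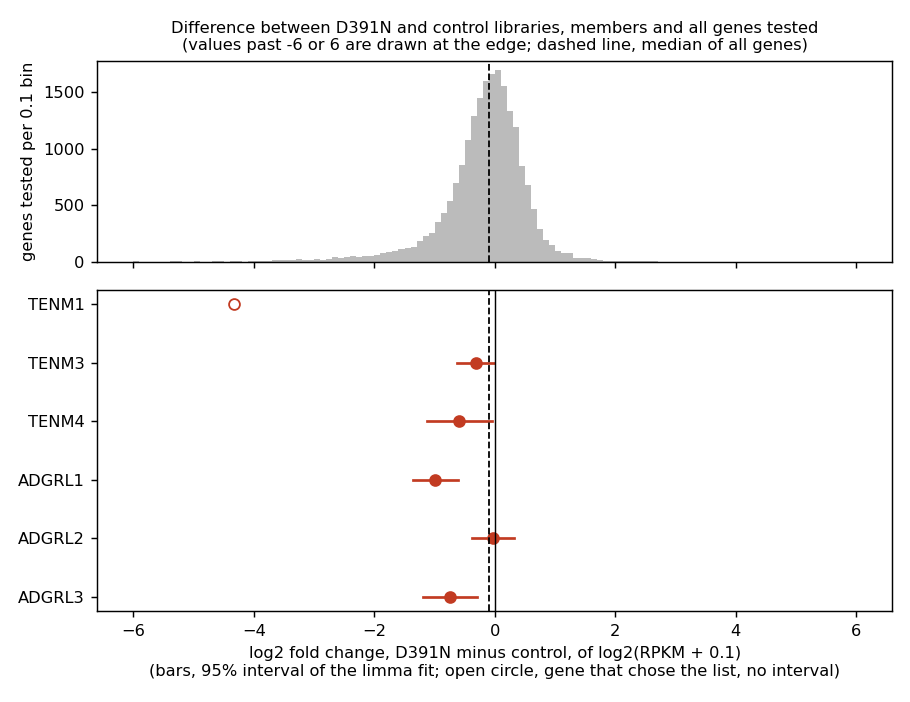
Top, histogram of the log2 fold changes of 20714 genes (number of genes per bin of 0.1), and bottom, the log2 fold changes of the 6 members tested with 95% intervals of the limma fit, except for TENM1 (open circle). ADGRL1 at -0.99 and ADGRL3 at -0.74 lie left of the median of all genes (dashed, -0.09), and the interval of ADGRL2 spans it.

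Leaving TENM1 aside, 5 members were tested and none was called, with 0.14% of all genes called. In 4 of the 5 every D391N library was below every control, a pattern shown by 20.7% of all genes, and the same 4 had an unadjusted p under 0.05 and a lower level, with 16% of all genes. The share was above the background, but the members were chosen with results known and no test over the list was made. The median log2 fold change of these 5 was -0.59, beside -0.09 over all genes. The number of calls over all genes was 29 with all libraries. It ranged from 2 to 2261 with 1 library left out, and was highest without D391N replicate 1. Of the 5 members, ADGRL1 passed the threshold without D391N replicate 1 and the other 4 did not.

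**Figure D4:**
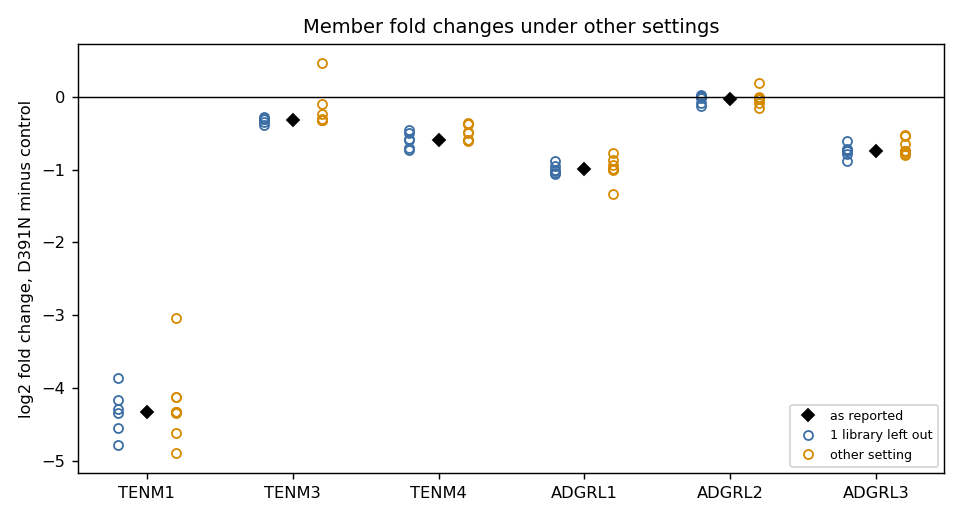
Log2 fold change of each member as reported (black diamonds), with 1 library left out (blue circles) and under the other settings (orange circles). TENM1 stays between -4.9 and -3.04 and ADGRL1 between -1.34 and -0.77, while ADGRL2 lies on both sides of 0 and TENM3 reaches 0.46 on RPM.

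The transcripts of the other members were tested at the transcript level, where 23 of 78 reached a mean of 1 RPKM. None was called, beside 0.0604% of the 54671 transcripts tested. In 7 of the 23 every D391N library was below every control and in 1 every D391N library was above, against 15.6% and 10.1% of all transcripts.

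For ADGRL1, the full-length coding transcript ADGRL1-201 (ENST00000340736, 24 exons), the most abundant of the long forms, was at 5.15, 4.48 and 5.29 RPKM in controls and at 1.9, 1.22 and 1.46 RPKM in D391N cells. The log2 fold change was -1.66 ± 0.28 (SE; adjusted p = 0.0917, limma), and without D391N replicate 1 it was -1.82 with an adjusted p of 0.0212. The retained-intron transcripts ADGRL1-203 and ADGRL1-205 were at log2 fold changes of -1.72 (adjusted p = 0.135, limma) and -1.48 (adjusted p = 0.149, limma). The short coding transcript ADGRL1-204, which covers exons 7 to 12, was at 5.21, 5.31 and 3.86 RPKM in controls and at 4.37, 4.3 and 2.63 RPKM in D391N cells, and the groups overlapped. ADGRL1-207 also overlapped (log2 fold change -0.48; adjusted p = 0.753, limma). The second long coding form, ADGRL1-202 (7820 nt, 23 exons), was under the minimum for a test and overlapped, at 0.36, 0.697 and 1.19 RPKM in controls and at 0.0981, 0.693 and 0.701 RPKM in D391N cells. Of the 5 tested transcripts, ADGRL1-201, ADGRL1-203 and ADGRL1-205 were thus lower in all D391N libraries and the other two were not. The antisense gene ADGRL1-AS1 was at 3.14 ± 0.825 RPKM in controls and 2.04 ± 0.622 RPKM in D391N cells (adjusted p = 0.293, limma).

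For TENM3, the full-length transcript TENM3-204 (ENST00000511685, 28 exons) was at 1.08, 3.32 and 3.48 RPKM in controls and at 3.33, 4.67 and 5.68 RPKM in D391N cells. Its log2 fold change was 0.90 ± 0.49 (SE; adjusted p = 0.373, limma), opposite in sign to the gene sum. The short TENM3-205 (ENST00000512480, exons 2 to 3) was at 4.09, 4.35 and 4.25 RPKM in controls and at 1.95, 1.32 and 1.83 RPKM in D391N cells, without overlap (log2 fold change -1.28; adjusted p = 0.123, limma). ENST00000406950, another TENM3 transcript, was at 5.74, 3.61 and 1.38 RPKM in controls and at 1.89, 0.739 and 0.414 RPKM in D391N cells. Of the remaining TENM3 transcripts, TENM3-201, TENM3-202, TENM3-203 and TENM3-206 had log2 fold changes of -0.02, 0.64, -1.19 and -0.04. The TENM3 gene sum thus averaged transcripts on both sides of 0, none of which was called. TENM3-AS1 was at 3.78 ± 1.26 RPKM in controls and 3.34 ± 0.373 RPKM in D391N cells, and without knowledge of strand use in the counting, reads of overlapping sense and antisense genes cannot be told apart.

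**Figure D5:**
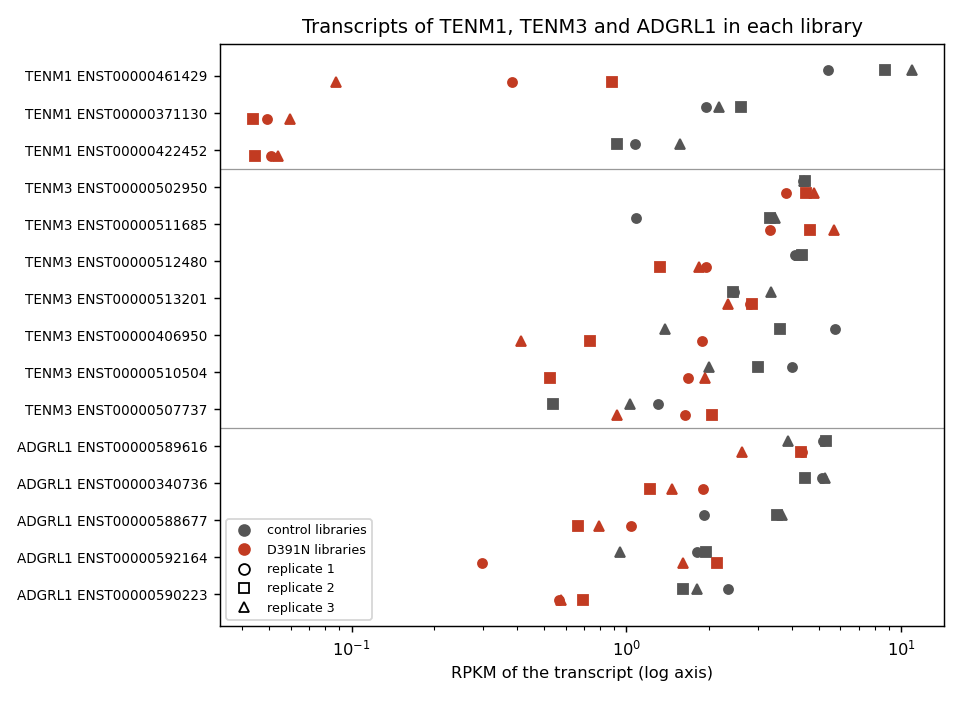
RPKM on a log axis of the TENM1 transcripts and of the tested TENM3 and ADGRL1 transcripts in each control (grey) and D391N (red) library, with the marker shape giving the replicate. The 3 TENM1 transcripts separate by group, ADGRL1 ENST00000340736 separates at 1.22 to 1.9 against 4.48 to 5.29, and TENM3 transcripts lie on both sides.

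ADGRL3-212 (ENST00000509779), without an annotated coding sequence, made up 44.4% of the ADGRL3 sum in controls and 23% in D391N cells. It was at 4.59, 3.44 and 2.73 RPKM in controls and at 1.82, 0.546 and 0.978 RPKM in D391N cells (log2 fold change -1.71 ± 0.46, SE; adjusted p = 0.171, limma). The other ADGRL3 transcript tested, ADGRL3-208, had a log2 fold change of 0.06, and the long coding transcript ADGRL3-215 (12636 nt) was at 0.703 ± 0.106 RPKM in controls and 0.437 ± 0.0766 RPKM in D391N cells, under the minimum for a test. TENM4-206, the only TENM4 transcript tested, had a log2 fold change of -0.49 ± 0.37 (SE; adjusted p = 0.506, limma).

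The 8 tested ADGRL2 transcripts ran from -1.87 to 0.91. ADGRL2-201, the most abundant, was at 9.81, 13.5 and 8.29 RPKM in controls and at 7.33, 6.79 and 11.6 RPKM in D391N cells. ADGRL2-213 (ENST00000449420) was the transcript that was higher in every D391N library, at 3.1, 3.43 and 3.37 RPKM in controls and 6.46, 4.39 and 4.73 RPKM in D391N cells (log2 fold change 0.62; adjusted p = 0.28, limma). ADGRL2-205 was at 1.98, 2.33 and 0.766 RPKM in controls and at 0.378, 0.218 and 0.49 RPKM in D391N cells (log2 fold change -1.87; adjusted p = 0.202, limma). ADGRL2-202, ADGRL2-203, ADGRL2-204, ADGRL2-214 and ADGRL2-218 stood at log2 fold changes of 0.09, 0.06, -1.01, 0.91 and -0.51. Isoforms of this gene share most of their exons, and their estimates depend on one another.

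None of the tested genes known to bind or follow these proteins was called at the gene level, where 0.14% of all genes were called. Of 11 other latrophilin ligands and their partners, 4 were tested and 1 had an unadjusted p under 0.05, against 22.7% of all genes. NRXN3, a neurexin, was at 9.73 ± 1.38 RPKM in controls and 9.81 ± 1.17 RPKM in D391N cells. UNC5C and UNC5B, netrin receptors that also bind FLRT proteins, had log2 fold changes of 0.45 (adjusted p = 0.242, limma) and -0.86 (adjusted p = 0.15, limma). FLRT3, the latrophilin ligand with the highest level of its family, was at 1.31 ± 0.368 and 1.29 ± 0.102 RPKM. Among the ligands tested, TENM1 aside, no difference passed the adjusted threshold.

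Of 4 reported teneurin partners 4 were tested, and 1 had an unadjusted p under 0.05, against 22.7% of all genes. Their median log2 fold change was -0.28. HINT1, a nucleotide hydrolase, was at 139, 134 and 101 RPKM in controls and at 88.8, 35.9 and 80.2 RPKM in D391N cells (log2 fold change -0.95; adjusted p = 0.187, limma). DAG1, dystroglycan, had a log2 fold change of 0.56, and MBD1, a methyl-CpG binding protein, one of -0.31. Of 14 G protein, arrestin and SHANK genes 13 were tested, with a median of -0.34, and 4 were lower and 1 higher at an unadjusted p under 0.05. ARRB2, an arrestin, was at 26.4 ± 1.98 RPKM in controls and 14.5 ± 3.73 RPKM in D391N cells (log2 fold change -0.89; adjusted p = 0.108, limma). GNAS, GNAI1 and GNAI2, G protein alpha subunits, had log2 fold changes of -0.43, 0.18 and -0.43.

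Of 25 other synaptic adhesion genes 10 were tested, with a median of -0.53, and 4 were lower at an unadjusted p under 0.05. PTPRF and PTPRS, receptor phosphatases of the LAR type, had log2 fold changes of -0.74 (adjusted p = 0.0893, limma) and -0.53 (adjusted p = 0.119, limma), and PTPRD of the same type was at 0.23. CADM1, the most abundant of them at a mean of 105 RPKM, was at 0.10. Of 29 other adhesion G protein-coupled receptors 15 were tested, with a median of -0.08 beside -0.09 for all genes. At an unadjusted p under 0.05, 4 of the 15 were lower. ADGRV1, ADGRA3, ADGRG6 and ADGRE5 had log2 fold changes of -0.08, 0.14, 0.38 and -0.61, none of which passed the adjusted threshold. Beside the 22.7% of all genes at an unadjusted p under 0.05, the lists of synaptic adhesion and of signalling genes held more such genes, 4 of 10 and 5 of 13, and the other receptors held 4 of 15.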

How the data were processed

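Total RNA for 3 D391N and 3 control libraries was depleted of rRNA, made into ScriptSeq libraries and sequenced as single-end reads. Adapters were removed by the authors with cutadapt, Segemehl placed the reads on Ensembl transcripts of hg38, and BitSeq estimated levels, dividing reads among transcripts that share them. The deposited values are BitSeq means on the natural log scale of RPKM, with a posterior variance for each transcript and library. The study multiplexed 3 libraries in a lane without naming them, so whether lane followed condition is not known, and an effect of lane was not tested. Use of strand in counting is not given in the sources used here.

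Values were exponentiated, summed per gene and changed to log2(RPKM + 0.1), which understates changes of low genes. Features averaging at least 1 RPKM, 20714 genes and 54671 transcripts, were compared with limma 3.58.1 (empirical Bayes with trend) in R 4.3.3, with Benjamini-Hochberg adjusted p under 0.05 as a call. Symbols matched 88.2% of the genes and lengths 90.2% of the transcripts. Reads behind a value were estimated from its variance, and such depths cover counting and assignment error only. From transcripts without reads the depth came to 13300000 to 21900000 reads. Tables and plots used Python 3.11.15, pandas 2.3.3, numpy 2.4.6, scipy 1.17.1 and matplotlib 3.10.9. The test was checked on simulated data with changes of 3 or 1 on the log2 scale. It called most of the changes of 3 put into genes, fewer of those put into transcripts and none of the changes of 1. Some unchanged features were called too. Few features were changed there and the noise was drawn alike for every library, so these shares need not hold in the data. The absence of a call does not show that a level was equal. Gene positions and start windows are from RefSeq (GRCh38.p14), and transcript lengths and exon numbers from a GENCODE annotation lifted to GRCh37. RefSeq windows matched 6 of the 7 members, without ADGRL1.

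Members, lists and tests were chosen with earlier results of these data known. Named genes are the members, their transcripts of at least 1 RPKM on average, DIS3L2, up to 4 genes of highest level per list (as no listed gene was called; 1 gene is not reported here), the 5 profiles nearest to TENM1 and its nearest tested neighbours. Other transcripts, the lowest genes reported in HEK293 cells and the low and highest markers of other cell types were named after their values were seen. Alternatives were other pseudocounts, filters, scalings, a replicate block, no trend, each library left out and, added after seeing the data, RPM (RPKM times length).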

Additional observations from a re-analysis of the deposited data

How the results depend on the processing

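The number of genes called, 29 as reported, was 61 at a pseudocount of 1, 16 at a pseudocount of 0.01, 18 without a filter, 6 at a mean of at least 5 RPKM, 14 with median centring, 17 with quantile normalization, 2 with a replicate block and 646 on RPM, an alternative added after seeing the data. With 1 library left out it ranged from 2 to 2261, the latter without D391N replicate 1, with 11 without D391N replicate 2 and 2 without any other library. Transcripts called, 33 as reported, were 142 at a pseudocount of 1, 18 without a filter, 17 at 5 RPKM, 7 with a replicate block, 52 without trend and 2 to 4961 with 1 library left out, the latter without D391N replicate 1. Same-numbered libraries had deviation correlations of 0.07, 0.22 and -0.11, so the numbers did not pair the samples, and the block changed no call among the members tested. Median centring moved the median gene from -0.09 to 0.129.

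Of the members, TENM1 went to -3.04 at a pseudocount of 1. ADGRL1 passed the threshold on RPM (-1.34), and over single libraries left out it ranged from -1.06 to -0.88. ADGRL2 turned to 0.19 with median centring and ranged from -0.12 to 0.02 with 1 library left out, where it turned to 0.01, 9.8e-05 and 0.02 without D391N replicate 2, control replicate 1 and control replicate 2. TENM3 turned to 0.46 on RPM. ADGRL3 and TENM4 kept their sign and stayed above the threshold in every alternative run, and TENM4 was not tested at 5 RPKM. Transcripts whose sign turned were ENST00000359929 (-0.01 at a pseudocount of 0.01; -0.66 to 1.45 with a library left out, -0.66, -0.52 and -0.43 being turned), ENST00000370713 (-0.04 at 0.01; -0.64 to 1.14, turned at -0.64, -0.33, -0.3 and -0.09), ENST00000502950 (0.05 centred, 0.0011 quantile; 0.07), ENST00000508078 (-0.03 at a pseudocount of 1; -0.5 to 0.7, turned at -0.23, -0.5 and -0.02), ENST00000513201 (0.03 centred, 0.05 quantile; 0.05 and 0.11) and ENST00000592164 (-0.96 to 0.29, turned without D391N replicate 1). Without D391N replicate 1, ENST00000340736, ENST00000509779, ENST00000512480 and ENST00000588677 passed the threshold, with adjusted p of 0.0212, 0.0336, 0.0419 and 0.047 (limma). The cause of these differences was not tested. With 3 libraries a group, a missed threshold does not show equal levels.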
